A study of Mus musculus with 11 samples.

Results

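The genes described here encode the machinery with which a skeletal muscle fibre takes calcium back into the sarcoplasmic reticulum and stores it. They are 10 genes, Atp2a1, Atp2a2, Pln, Sln, Casq1, Casq2, Pvalb, Jph1, Jph2 and Trdn, and were chosen by symbol. All 25 probe sets that the array annotation gives to these symbols were taken, of 45101 on the array. Of the 25, 21 were bright enough to be tested, and each of the 10 genes had at least 1 tested probe set, of 12214 genes in all.

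The muscle was the mouse tibialis anterior, made mostly of fast fibres, and its total RNA was hybridised to 11 Affymetrix arrays. The control genotype, runx1f/-, carries a floxed and a null allele of the transcription factor gene Runx1. The other genotype, runx1f/-; MCK::cre, carries the same 2 alleles and a Cre recombinase transgene under the promoter of muscle creatine kinase, which is active in muscle fibres. Both genotypes were measured innervated and denervated, with 3 innervated control, 3 denervated control, 2 innervated MCK::cre and 3 denervated MCK::cre arrays. The titles give 3 days of denervation. For denervated control 3 the treatment field says 5 days instead, and results that change without that array are given so. The labels do not say that the arrays of a group came from separate animals, so p-values measure the spread between these samples, which may be technical. Only MCK::cre muscle carries Cre, so an effect of Cre and one of targeting Runx1 cannot be told apart. The comparisons ask how these genes respond to the loss of the nerve, and whether that response differs in MCK::cre muscle.

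A muscle fibre contracts when calcium leaves the sarcoplasmic reticulum and relaxes when calcium pumps return it. The pumps SERCA1 (Atp2a1, the fast-fibre form) and SERCA2 (Atp2a2, in muscle the form of slow fibres and heart) do the returning. The small membrane proteins phospholamban (Pln) and sarcolipin (Sln) bind and slow the pumps. Inside the reticulum the calsequestrins Casq1 (fast) and Casq2 (slow and cardiac) hold calcium, and triadin (Trdn) anchors them near the release channel. Junctophilins (Jph1, Jph2) tie the reticulum to the fibre's transverse tubules, and parvalbumin (Pvalb) buffers calcium in the cytosol of fast fibres.

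RefSeq promoters of build GRCm38.p6 were at hand for 6 of the 10 genes. The 250 bases before the start are shown, 5′ to 3′ on the gene's strand. They are given for Pln, the gene on which the genotype comparison turns, and for the calsequestrin pair, whose estimated falls differed in size. Capitals mark matches on either strand to a RUNX motif (TGTGGT), an E-box (CAGCTG) or a MEF2 motif, and no matches overlapped.
Pln, chr10:53337436-53337685, plus strand: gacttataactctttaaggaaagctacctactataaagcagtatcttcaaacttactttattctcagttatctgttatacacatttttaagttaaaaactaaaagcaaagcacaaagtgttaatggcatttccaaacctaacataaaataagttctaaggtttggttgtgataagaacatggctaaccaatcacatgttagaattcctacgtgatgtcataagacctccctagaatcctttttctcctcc
Casq1, chr1:172219896-172220145, minus strand: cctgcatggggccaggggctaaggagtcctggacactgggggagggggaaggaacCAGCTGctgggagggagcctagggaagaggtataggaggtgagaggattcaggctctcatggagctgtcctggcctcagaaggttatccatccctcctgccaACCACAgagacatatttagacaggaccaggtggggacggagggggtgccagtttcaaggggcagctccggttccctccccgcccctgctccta
Casq2, chr3:102086165-102086414, plus strand: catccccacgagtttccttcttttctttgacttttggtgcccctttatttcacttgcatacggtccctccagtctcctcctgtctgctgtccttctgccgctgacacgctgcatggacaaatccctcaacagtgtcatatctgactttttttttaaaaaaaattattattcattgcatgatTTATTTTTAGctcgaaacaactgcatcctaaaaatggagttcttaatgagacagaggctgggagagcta

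The Pln window held none of the 3 motifs as searched. Only the CAGCTG form of the E-box and the TGTGGT form of the RUNX motif were searched. The Casq1 window held an E-box at -195 to -190 from the start and, on the opposite strand, a RUNX motif at -93 to -88. The Casq2 window held a MEF2 motif at -69 to -60. Of the windows not shown, that of Atp2a1 (chr7:126463074-126463323) held an E-box at -55 to -50. Both overlapping Jph2 windows held an E-box. One of 2 Pvalb windows (chr15:78206401-78206650) held a MEF2 motif at -180 to -171. Among all 32851 promoter windows of the same length, 14% held the RUNX motif, 13% the E-box and 2.92% the MEF2 motif. A match is a string of letters and does not show that a factor binds there.

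On the deposited scale, all 10 genes changed with denervation in control muscle, in 2 directions. At their brightest probe sets the pump gene Atp2a2 and both pump regulator genes rose: Pln 11-fold, Sln 4-fold and Atp2a2 3.62-fold. Which cells of the whole muscle gave the signal was not tested. The fast-type pump, both calsequestrins, triadin, both junctophilins and parvalbumin fell, by 1.38-fold (Atp2a1) to 2.91-fold (Casq2). By limma's test at an adjusted p under 0.05, 3 genes rose and 7 fell. Over all genes tested, 34.4% passed, 18% rising and 16.4% falling. The median log2 change of the 10 genes was -0.66, beside -0.01 over all genes tested. The MCK::cre arrays also gave 3 rises and 7 falls, where 30.5% of all genes passed, 16.7% rising and 13.8% falling. That median was -0.71, beside -0.01. In control muscle, Atp2a1 and Pvalb did not pass when all arrays were given the same distribution (quantile normalization), nor without denervated control 3. None of the 7 falls passed when arrays were centred on hybridisation spike-ins.

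**Figure D1:**
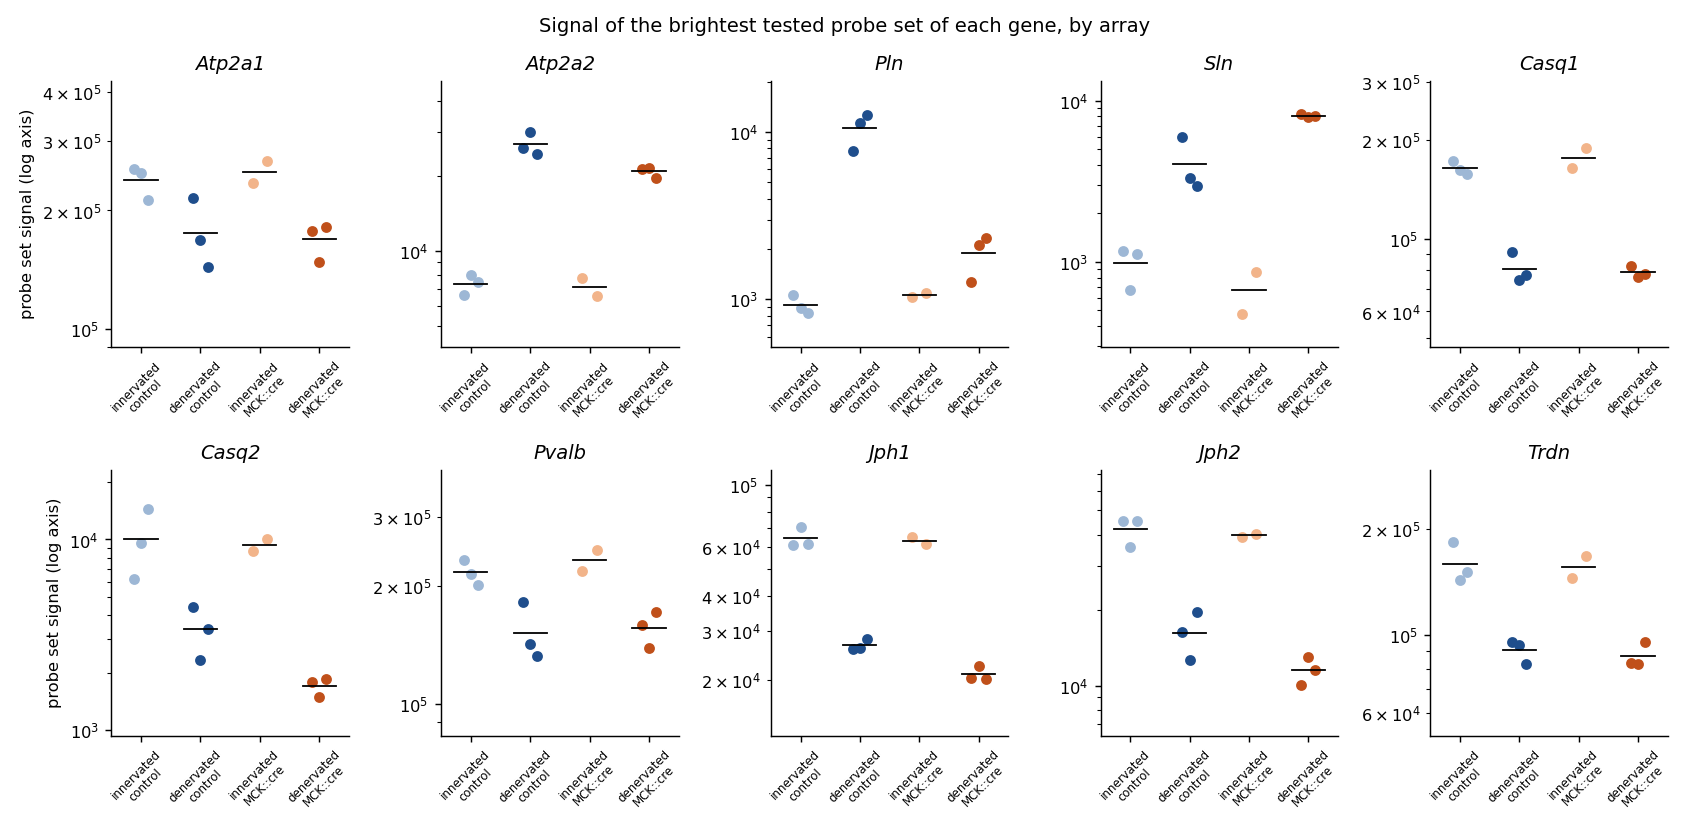
Signal of each gene's brightest tested probe set on each of the 11 arrays, on a log axis with its own range for each gene; points are arrays and lines are group means. Pln, Sln and Atp2a2 lie higher on denervated arrays, and Pln reaches 12592 on a denervated control array but no more than 2314 on denervated MCK::cre arrays.

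Array-wide values that move with denervation stand beside these results. Array medians ran from 442.5 to 604.6. The brightest probe set of an array read 252411 to 304181 on innervated and 171982 to 251872 on denervated arrays. Hybridisation spike-ins were 0.73 log2 units lower on denervated arrays. They also differed between the denervated genotypes, at a mean log2 signal of 12.74 to 12.89 on control and 13.11 to 13.40 on MCK::cre arrays. The log2 3′ to 5′ ratio of the Gapdh probe sets was -0.31 to -0.18 on all arrays, and that of the actin probe sets -0.05 to 0.11 on innervated and 0.07 to 0.30 on denervated arrays. In whole muscle, fewer cells of a type and less RNA per cell cannot be told apart. The summed signal of 9 macrophage and leukocyte markers was 24701 to 35065 on innervated and 75379 to 116975 on denervated control arrays. On MCK::cre arrays it was 20824 to 21318 innervated and 100286 to 111910 denervated. By gene, 3 of the 9 rose in control and 7 of the 9 in MCK::cre muscle, where 18% and 16.7% of all genes rose. In the interaction 1 passed (Ptprc, named here after its values were seen), by 1.76 (limma adjusted p = 0.0259), where 0.262% of all genes did. MCK::cre minus control, Ptprc was -1.51 in innervated (limma adjusted p = 0.15) and 0.25 in denervated muscle (limma adjusted p = 0.705). In denervated muscle 0 of the 9 markers passed between the genotypes, where 2.19% of all genes did. The 9 fast-fibre markers summed to 1953839 to 2349601 on innervated and 1235405 to 1731867 on denervated arrays. Of these markers 8 of 9 fell in each genotype, where 16.4% of all genes fell in control and 13.8% in MCK::cre muscle. The part of these values in the changes below was not tested.

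Further marker lists were counted in the same way, where 16.4% of all genes fell in control and 13.8% in MCK::cre muscle. Of 7 general skeletal fibre markers 5 fell in control and 7 in MCK::cre muscle. Of 6 tested smooth muscle markers 4 fell in each genotype, and their sum was 41306 to 64230 on innervated and 25799 to 34522 on denervated arrays. Of 7 endothelial markers 6 fell in control and 3 in MCK::cre muscle. Of 4 tested Schwann cell markers 2 fell in each genotype, and of 6 fibroblast and matrix markers 0 and 1 fell. Heart muscle also uses Atp2a2, Pln and Casq2. The heart markers Nppa, Nppb, Myl7 and Tnni3 were too dim to be tested on these arrays, and the 2 that were tested, Myh6 and Ryr2, did not pass in any comparison. The 2 summed to 843 to 1429 on innervated and 314 to 722 on denervated arrays.

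The fast-type pump gene Atp2a1 was among the 16 brightest probe sets on every array. Its innervated control signals were 254809, 249597 and 212177, and its denervated control signals 214646, 168178 and 143467. The highest denervated array lay above the lowest innervated one, so the groups overlap. Innervated MCK::cre muscle gave 234827 and 267306, and denervated MCK::cre muscle 177232, 147822 and 181367.5, with no overlap. The fall was 1.38-fold in control (log2 change -0.46 ± 0.15 SE, limma adjusted p = 0.038) and 1.49-fold in MCK::cre muscle (-0.58 ± 0.17 SE, limma adjusted p = 0.0254). Without denervated control 3 the control change was -0.33 (limma adjusted p = 0.154). Quantile normalization, which gives all arrays one distribution, moved it to -0.04 (limma adjusted p = 0.765) and the MCK::cre change to -0.05 (limma adjusted p = 0.729). Centring each array on its median moved the MCK::cre change to -0.27 (limma adjusted p = 0.19), and it moved the median of all genes there to 0.29. Of 17 alternatives 7 kept the control call, and of 15 alternatives 9 ended the MCK::cre call.

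Atp2a2, the slow-type pump gene, moved the opposite way and by more. Its brightest probe set read 6679, 7983 and 7477 in innervated and 25859.7, 30030.5 and 24377 in denervated control muscle. The MCK::cre arrays read 7789.5 and 6576 innervated, and 21411, 21543 and 19589 denervated. All 6 denervated arrays lay above all 5 innervated ones. The rise was 3.62-fold in control (log2 change 1.85 ± 0.13 SE, limma adjusted p = 4.85e-07) and 2.91-fold in MCK::cre muscle (1.54 ± 0.15 SE, limma adjusted p = 9.58e-06).

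Probe sets of Atp2a2 did not move alike. A second one, 1452363_a_at, rose 4.24-fold in control and 5.48-fold in MCK::cre muscle. The third, 1427250_at, went from 6405 ± 917 to 8159 ± 359 (SD, n = 3 each) in control, a log2 change of 0.36 (limma adjusted p = 0.0678), and rose by 0.46 in MCK::cre muscle (limma adjusted p = 0.0405). The fourth, 1427251_at, changed by 0.15 and 0.14 (limma adjusted p = 0.633 and 0.679). The other two were too dim to be tested, at means of 111.1 to 275 over the groups, where control probe sets for bacterial trp RNA read 13.8 to 440. With the mean of all 6 probe sets in place of the brightest, Atp2a2 rose in control but its change in MCK::cre muscle was 0.65 (limma adjusted p = 0.0666). What part of the transcript each probe set reads is not analysed here.

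At the brightest probe set of each gene, the Atp2a1 and Atp2a2 signals therefore shifted relative to each other. The ratio values below use these probe sets, and the other Atp2a2 probe sets were not used singly. The log2 ratio of the Atp2a1 to the Atp2a2 signal does not depend on a factor common to a whole array. This ratio was 4.82 to 5.34 on the 5 innervated and 2.49 to 3.21 on the 6 denervated arrays. It dropped by 2.31 in control and by 2.11 in MCK::cre muscle. The exact two-sided permutation test within genotype gave p = 0.005, the smallest that its 200 arrangements can give, and 0.02 after adjustment over 4 gene pairs. With control arrays exchanged only within pairs of equal number, the exact test's 80 arrangements gave p = 0.0125, again the smallest possible, and 0.0333 adjusted. Leaving out any MCK::cre array gave an adjusted exact p from 0.05 to 0.0667, the smallest those smaller designs allow, with ratio changes from -2.32 to -2.11. Quantile normalization is not such a common factor: in control muscle it left Atp2a1 at -0.04 and Atp2a2 at 1.86. The ratio was not tested on that scale. A ratio of signals shows unequal change and not how much of each pump was present.

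Pln, which encodes the pump inhibitor phospholamban, showed the largest rise of the 10 genes in control muscle. Its brightest probe set read 1058, 888 and 829.8 in innervated and 7679.6, 11373 and 12592 in denervated control muscle. The lowest denervated array was thus several times above the highest innervated one. The rise was 11-fold (log2 change 3.46 ± 0.24 SE, 95% interval 2.95 to 3.98, limma adjusted p = 3.50e-07). MCK::cre signals were 1037 and 1098 innervated, and 1265, 2120.4 and 2314 denervated. The groups did not overlap, and the rise was 1.71-fold (0.78 ± 0.27 SE, 95% interval 0.20 to 1.35, limma adjusted p = 0.0479).

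The other two Pln probe sets gave the same contrast. Probe set 1423359_at read 1160.5, 933.6 and 710.1 in innervated and 5274, 8423 and 6580.4 in denervated control muscle, a 7.13-fold rise (limma adjusted p = 3.94e-06). With MCK::cre it read 1258 and 1465 innervated, and 916, 1337 and 1784 denervated. These overlap, with a log2 change of -0.06 ± 0.29 SE (limma adjusted p = 0.894). Probe set 1460332_at read 1017, 865.7 and 1346 in innervated and 3632.5, 6075 and 8009 in denervated control muscle, a 5.24-fold rise (limma adjusted p = 3.58e-05). Its MCK::cre signals were 1233 and 951.8 innervated and 882, 1063 and 1451 denervated, a log2 change of 0.03 ± 0.32 SE (limma adjusted p = 0.953). The small MCK::cre rise therefore stands on 1 of 3 probe sets. Averaging all 3 gave 0.25 (limma adjusted p = 0.514), and leaving out either innervated MCK::cre array gave adjusted p = 0.175 and 0.14.

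Sln, which encodes the related inhibitor sarcolipin, rose in both genotypes. Its tested probe set read 1178, 668.3 and 1124 in innervated and 5949.7, 3320.4 and 2969.7 in denervated control muscle. With MCK::cre it read 473.7 and 870 innervated, and 8298, 7938 and 8071 denervated. All denervated arrays lay above all innervated ones, and the 3 denervated MCK::cre arrays lay closest together. The rise was 4-fold in control (log2 change 2.00 ± 0.29 SE, limma adjusted p = 0.000199) and 12.3-fold in MCK::cre muscle (3.62 ± 0.33 SE, limma adjusted p = 5.36e-06). A second Sln probe set read 63.1 to 415.5 over the 11 arrays and was too dim to be tested. The mean of both probe sets rose by 0.90 in control (limma adjusted p = 0.0356) and by 1.40 in MCK::cre muscle (limma adjusted p = 0.00768).

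**Figure D2:**
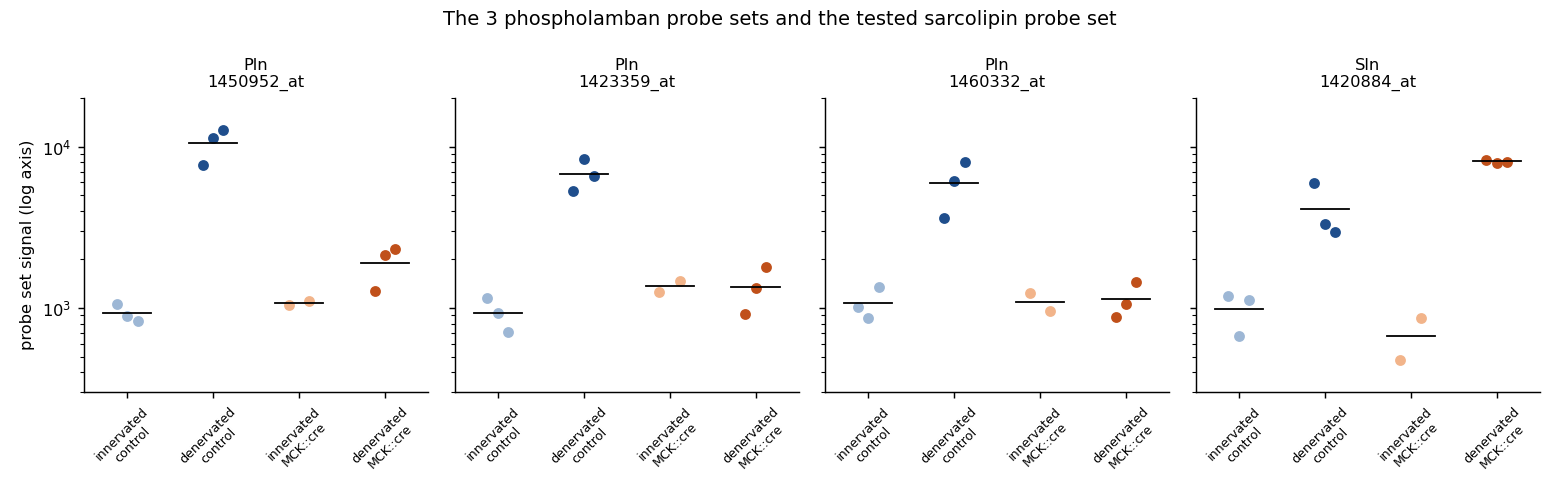
Signals of the 3 Pln probe sets and the tested Sln probe set on each of the 11 arrays, on a shared log axis; points are arrays and lines are group means. All 3 Pln probe sets lie lower on denervated MCK::cre than on denervated control arrays, while Sln lies higher, from 7938 to 8298 against 2969.7 to 5949.7.

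At the brightest probe sets the mean Pln to Sln signal ratio moved in opposite directions in the genotypes, a difference that was not tested. The log2 ratio of Pln to Sln signal was -0.43 to 0.40 in innervated and 0.37 to 2.08 in denervated control muscle, with overlap. With MCK::cre it was 0.33 to 1.10 innervated and -2.70 to -1.79 denervated. The change was 1.47 in control and -2.85 in MCK::cre muscle. Their mean, -0.69, gave an exact permutation p of 0.43, which tests a shift common to both genotypes and not the difference between them.

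Casq1, the main calsequestrin of fast fibres, fell in both genotypes. Signals were 171678.5, 161731 and 157172 in innervated and 91169, 74784 and 77239.8 in denervated control muscle. They were 163629 and 188516 in innervated and 82381, 76499 and 78216 in denervated MCK::cre muscle. Innervated and denervated arrays were far apart. The fall was 2.02-fold in control (log2 change -1.02 ± 0.12 SE, limma adjusted p = 2.69e-05) and 2.22-fold in MCK::cre muscle (-1.15 ± 0.13 SE, limma adjusted p = 3.33e-05). The 95% interval of the difference between these changes was -0.51 to 0.24.

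Casq2, the slow and cardiac calsequestrin, had a single probe set and the largest fall of the 10 genes in both genotypes. Its signals were 6220.5, 9600.2 and 14514 in innervated and 4412, 2320.2 and 3409.5 in denervated control muscle. MCK::cre muscle gave 8746 and 10072.5 innervated, and 1779, 1492 and 1848 denervated. The groups did not overlap in either genotype, and the innervated control arrays spread widest. The fall was 2.91-fold in control (log2 change -1.54 ± 0.28 SE, limma adjusted p = 0.00104) and 5.48-fold in MCK::cre muscle (-2.45 ± 0.31 SE, limma adjusted p = 8.87e-05).

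Innervated control 3, the array with the highest Casq2 signal, also had the highest slow-fibre marker sum, 81646, against 25285 and 32448 on the other 2 of its group. Without it Casq2 fell by 1.24 on the log2 scale in control muscle (limma adjusted p = 0.00357). The log2 ratio of Casq1 to Casq2 was 3.44 to 4.78 on innervated and 4.36 to 5.67 on denervated arrays. It rose by 0.52 in control and by 1.30 in MCK::cre muscle, with an exact permutation p of 0.015 and 0.03 adjusted over the 4 pairs. Leaving out single arrays gave 0.75 to 1.08 for the mean change. The adjusted exact p then lay above 0.05 in 10 of 11 cases, from 0.0533 to 0.1, so the call was lost there.

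Trdn, which encodes the calsequestrin anchor triadin, has 6 probe sets here. The brightest went from 159070.1 ± 21709 to 90609.8 ± 6963 in control (SD, n = 3 each). It went from 156170.0 ± 16464 (SD, n = 2) to 87259.9 ± 7236 (SD, n = 3) in MCK::cre muscle. The fall was 1.75-fold (limma adjusted p = 0.000441) and 1.79-fold (limma adjusted p = 0.000982). Another 3 probe sets fell in both genotypes, by 1.36 to 2.36-fold in control and 1.77 to 2.76-fold in MCK::cre muscle. Probe set 1451940_x_at was dim, at 524.8 ± 63.7 and 624.1 ± 103.6 in innervated and denervated control muscle (SD, n = 3 each). Its MCK::cre signals were 1328 and 850.4 innervated and 507.2, 303.3 and 625.5 denervated (limma adjusted p = 0.0217). The denervated ones lie in or near the trp control range, so no size is given for that fall. The last, 1426134_at, was too dim to be tested.

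Jph1, the junctophilin of skeletal muscle, read 60893, 70727.5 and 61227 in innervated and 25788, 25939 and 27937.5 in denervated control muscle. Its MCK::cre signals were 64827 and 61115 innervated, and 20335, 22304 and 20121 denervated. Neither genotype's groups overlapped. The fall was 2.42-fold in control (log2 change -1.27 ± 0.11 SE, limma adjusted p = 3.37e-06) and 3.01-fold in MCK::cre muscle (-1.59 ± 0.13 SE, limma adjusted p = 1.89e-06).

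Jph2, the junctophilin shared with heart, went from 42100.1 ± 5519 to 16204 ± 3528 in control (SD, n = 3 each) and from 39788 ± 833 (SD, n = 2) to 11550.2 ± 1453 (SD, n = 3) in MCK::cre muscle. The fall was 2.62-fold (limma adjusted p = 4.48e-05) and 3.46-fold (limma adjusted p = 2.01e-05). The second probe set of each junctophilin fell too, by 2.5 and 4.97-fold for Jph1 and by 3.33 and 3.79-fold for Jph2 in control and MCK::cre muscle. The log2 ratio of Jph1 to Jph2 changed by 0.12 in control and 0.20 in MCK::cre muscle (exact permutation p = 0.215, adjusted 0.287). Exchanging control arrays only within pairs of equal number gave an exact permutation p of 0.025, adjusted 0.0333.

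Pvalb, the cytosolic calcium buffer of fast fibres, was among the 37 brightest probe sets on every array. It went from 216368 ± 15837 to 152116 ± 25897 in control (SD, n = 3 each). The MCK::cre arrays went from 233010.6 ± 20052 (SD, n = 2) to 156096 ± 16473 (SD, n = 3). The fall was 1.43-fold in control (limma adjusted p = 0.0126) and 1.5-fold in MCK::cre muscle (limma adjusted p = 0.0147). Without denervated control 3 the control change was no longer past the threshold (limma adjusted p = 0.0555). Quantile normalization moved the changes to -0.09 (limma adjusted p = 0.475) and -0.00 (limma adjusted p = 0.995). Median centring gave -0.28 in MCK::cre muscle (limma adjusted p = 0.167).

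**Figure D3:**
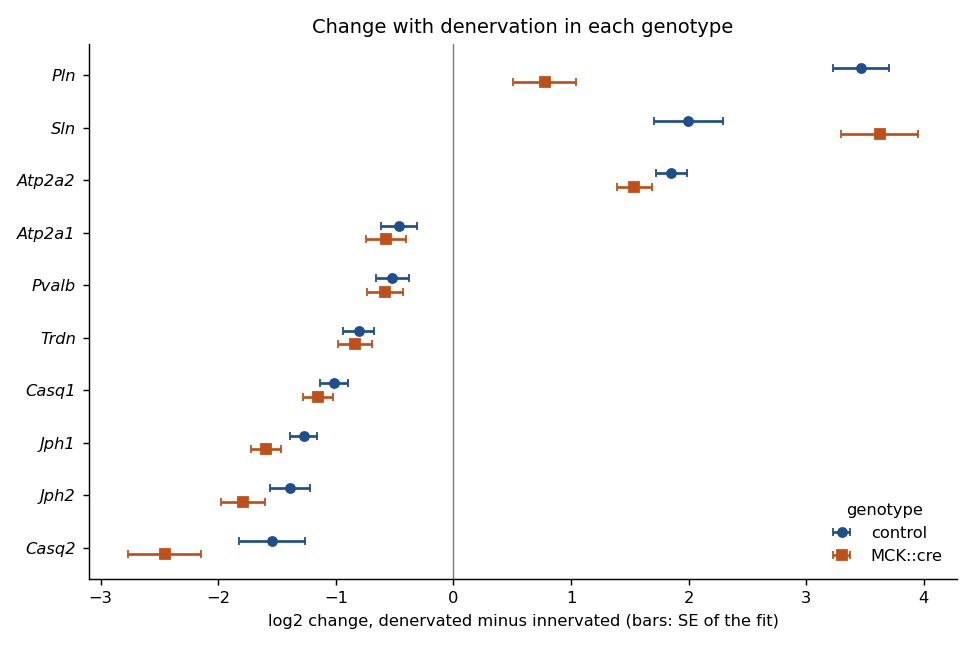
Log2 change with denervation of each gene's brightest tested probe set in control (circles) and MCK::cre muscle (squares); bars are the standard error of the limma fit. Pln stands at 3.46 in control and 0.78 in MCK::cre muscle, Sln at 2.00 and 3.62, and the other 8 genes lie closer together in the genotypes.

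Without denervated control 3, 8 of the 10 genes passed in control muscle, with Atp2a1 and Pvalb outside the threshold. Of the 21 tested probe sets, 6 rose and 12 fell in control muscle, where 29.3% of all probe sets passed, 14.9% rising and 14.4% falling. With MCK::cre 5 rose and 13 fell, where 26.3% passed, 13.1% rising and 13.3% falling. Arrays of the groups did not overlap for 9 of the 10 genes in control and 10 of 10 in MCK::cre muscle, against 46.7% and 60.7% of all genes. Centring the arrays on the spike-ins raised the median change of all genes to 0.94 in control and 0.51 in MCK::cre muscle. On that scale all genes split into 8221 higher and 318 lower calls in control muscle, against 2200 and 2002 as deposited, and the 10 genes into 3 higher and 0 lower. Atp2a1, Pvalb and Trdn then stood at 0.49, 0.43 and 0.14. Relative to the median of all genes they were at -0.46, -0.51 and -0.80.

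Between the genotypes, innervated muscle gave no difference in the 10 genes that passed. Differences of MCK::cre minus control ran from -0.57 (Sln, 95% interval -1.27 to 0.14) to 0.21 (Pln, 95% interval -0.37 to 0.79), all with a limma adjusted p of 0.998. At its brightest probe set none of the 10 had an unadjusted p under 0.05, and 3.77% of all genes did. Among their other tested probe sets, Atp2a2 1452363_a_at was lower in MCK::cre muscle (-0.72, limma unadjusted p = 0.00435). The dim Trdn 1451940_x_at was higher (limma unadjusted p = 0.0116). Both had a limma adjusted p of 0.998. No gene of the array passed in this comparison (0%), which rests on 2 MCK::cre arrays.

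In denervated muscle, 1 of the 10 genes passed, Pln, where 2.19% of all genes passed. Pln was 5.58-fold lower in MCK::cre than in control muscle, at 1899.8 ± 558 against 10548 ± 2558 (SD, n = 3 each). The log2 difference was -2.48 ± 0.24 SE (95% interval -3.00 to -1.96, limma adjusted p = 0.000174), the 16th lowest of the 12214 genes. The other two probe sets of Pln were 5.06-fold (limma adjusted p = 0.000438) and 5.01-fold lower (limma adjusted p = 0.00103). At the level of probe sets these 3 were the only ones of the 21 to pass, where 1.83% of all probe sets did. No denervated MCK::cre array reached the lowest denervated control array on any of the 3. The call held without any single one of the 6 denervated arrays, denervated control 3 included.

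The interaction asks whether the change with denervation differs between genotypes. Pln alone of the 10 genes passed, where 0.262% of all genes did. The log2 change in MCK::cre muscle minus that in control was -2.69 ± 0.36 SE (95% interval -3.46 to -1.91, limma adjusted p = 0.0112), the 8th smallest p of all genes. For the other two probe sets it was -2.90 (limma adjusted p = 0.0112) and -2.36 (limma adjusted p = 0.0438), so 3 of 21 probe sets passed, where 0.248% of all did. Without innervated MCK::cre 2 the value was -2.65 and no longer passed (limma adjusted p = 0.0545), and without innervated MCK::cre 1 it did (-2.73, limma adjusted p = 0.0344). A variance model with no trend on signal gave a limma adjusted p of 0.0561.

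Some fibre-type markers also differed between the genotypes. With denervation, of 7 slow-fibre markers 3 rose and 2 fell in control muscle and 0 passed in MCK::cre muscle. Over all genes tested 18% rose and 16.4% fell in control muscle, and 30.5% passed in MCK::cre muscle. In denervated muscle 2 of the 7 were lower in MCK::cre, where 2.19% of all genes passed. They were the slow troponins Tnni1 (log2 difference -2.11, limma adjusted p = 0.00673) and Tnnt1 (-1.50, limma adjusted p = 0.00702). The other 5 lay between -0.86 (Myh7) and 0.00 (Tpm3) and did not pass. The slow-fibre sum was 22280 to 30717 on denervated control and 16281 to 22076 on denervated MCK::cre arrays. Of 9 fast-fibre markers, Myh2, the IIa myosin heavy chain, was lower in denervated MCK::cre muscle (log2 difference -2.78, limma adjusted p = 0.000262), with an interaction of -2.41 (limma adjusted p = 0.0391), and the other 8 did not pass in either. These markers were named after their values were seen. Their part in the Pln difference was not tested.

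Sln differed in the opposite direction from Pln but did not pass. Denervated signals were 4079.9 ± 1629 in control and 8102.5 ± 182 in MCK::cre muscle (SD, n = 3 each), with no overlap. The log2 difference was 1.06 ± 0.29 SE (95% interval 0.43 to 1.69, limma adjusted p = 0.109), and the interaction 1.62 ± 0.44 SE (95% interval 0.68 to 2.57, limma adjusted p = 0.228). The mean of both probe sets gave 0.28 and 0.50 (limma adjusted p = 0.799 and 0.872). Without denervated control 1, its highest denervated control array, the difference was 1.36 and passed (limma adjusted p = 0.0483).

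Casq2 was lower on every denervated MCK::cre array than on any denervated control array, by -0.94 ± 0.28 SE (95% interval -1.54 to -0.33, limma adjusted p = 0.147). Atp2a2 (-0.36, limma adjusted p = 0.291) and Jph1 (-0.34, limma adjusted p = 0.207) also did not overlap between the genotypes, and Jph2 (-0.47, limma adjusted p = 0.265) did. For Atp2a1, Casq1, Pvalb and the brightest probe set of Trdn the differences were between -0.05 and 0.05 (limma adjusted p from 0.93 to 0.96). Their 95% intervals lay within -0.37 to 0.34. The other tested probe sets of Trdn also lay below 0 and did not pass. Groups did not overlap at 1451801_at (-0.44, limma adjusted p = 0.239) and 1426142_a_at (-0.22, limma adjusted p = 0.528). Of the 10 genes 6 had an unadjusted p under 0.05, against 12.5% of all genes, and 5 had groups that did not overlap, against 23.1%.

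**Figure D4:**
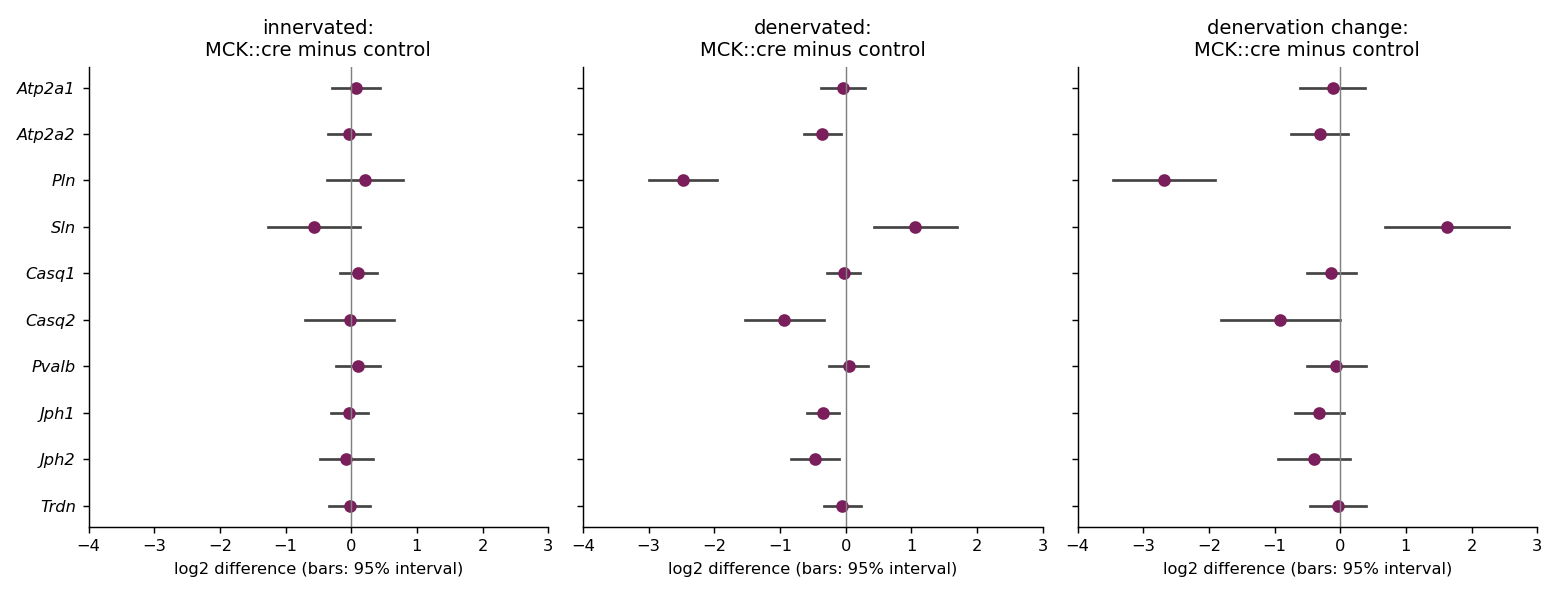
Log2 difference of MCK::cre minus control muscle for each gene's brightest tested probe set, innervated (left), denervated (middle) and for the change with denervation (right); points are limma estimates and bars their 95% intervals. Pln lies at -2.48 in denervated muscle and -2.69 for the change, Sln at 1.06 and 1.62, and all 10 intervals of innervated muscle include 0.

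Runx1 itself, the gene targeted by the floxed allele, read 178.9 to 519.1 on innervated and 20403 to 25898 on denervated arrays at its brightest probe set. There denervated MCK::cre minus control muscle was -0.21 (limma adjusted p = 0.884). In this comparison 23.1% of all genes had groups that did not overlap. The groups did not overlap at 2 of the other Runx1 probe sets. The first of these read 2619 to 3858 in control and 1209 to 2217 in MCK::cre muscle (-1.07, limma adjusted p = 0.427), and the second read 1574 to 3049 and 1145 to 1492.5 (-0.82, limma adjusted p = 0.165). The position of its probes relative to the deletion is not known here, so this checks neither the labels nor the deletion.

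The wider calcium machinery was read from 4 lists. Beside their counts, 18% of all genes tested rose and 16.4% fell in control muscle, and 16.7% rose and 13.8% fell in MCK::cre muscle. Of 18 genes of calcium release and the triad, where reticulum and tubule meet, 8 fell and 1 rose in control muscle, with a median log2 change of -0.32. The 5 largest falls were those of Sypl2, a triad membrane protein (2.34-fold), Cacna2d1 (1.78-fold) and Cacna1s (1.51-fold), subunits of the voltage sensor, Asph (1.68-fold), whose locus also encodes junctin, and Ryr1, the release channel (1.53-fold). Cacng1, the gamma subunit of the voltage sensor, rose 3.07-fold (limma adjusted p = 0.000105). With MCK::cre 7 fell and 1 rose.

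Of 8 tested reticulum proteins and pump regulators outside the 10 genes, 4 fell and 2 rose in control muscle, with a median of -0.67. Dhrs7c, a dehydrogenase of the reticulum membrane, fell 18.6-fold, from 58842.5 ± 20485 to 3244 ± 1588 (SD, n = 3 each, limma adjusted p = 7.21e-07). Hrc, a histidine-rich calcium binder of the lumen, fell 3.24-fold, Srl (sarcalumenin) 1.97-fold and Atp2a3, another pump gene, 1.95-fold. The chaperones Canx and Calr, which bind calcium in the general endoplasmic reticulum, rose 1.66-fold and 1.64-fold. In MCK::cre muscle 4 fell and 2 rose.

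Of 7 tested genes of calcium entry, extrusion and mitochondrial uptake, 3 fell and 0 rose, with a median of -0.59. Slc8a3, a sodium-calcium exchanger, fell 4.49-fold, and the store-operated entry genes Orai1 and Stim1 fell 1.89-fold and 1.76-fold. In MCK::cre muscle 2 fell and 0 rose. The other 9 of this list, among them the calmodulin genes, were not tested.

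Of 14 tested calcineurin and CaM kinase genes, which carry calcium signals to gene expression, 5 fell and 1 rose, with a median of -0.37. Camk2a fell 4.15-fold, the calcineurin target Nfatc1 2.19-fold, Myoz1, a calcineurin-binding Z-disc protein, 1.99-fold, and the calcineurin subunits Ppp3cb and Ppp3r1 1.76-fold and 1.43-fold. Rcan1, a calcineurin inhibitor, rose 1.37-fold (limma adjusted p = 0.0446). In MCK::cre muscle 6 fell and 0 rose.

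**Figure D5:**
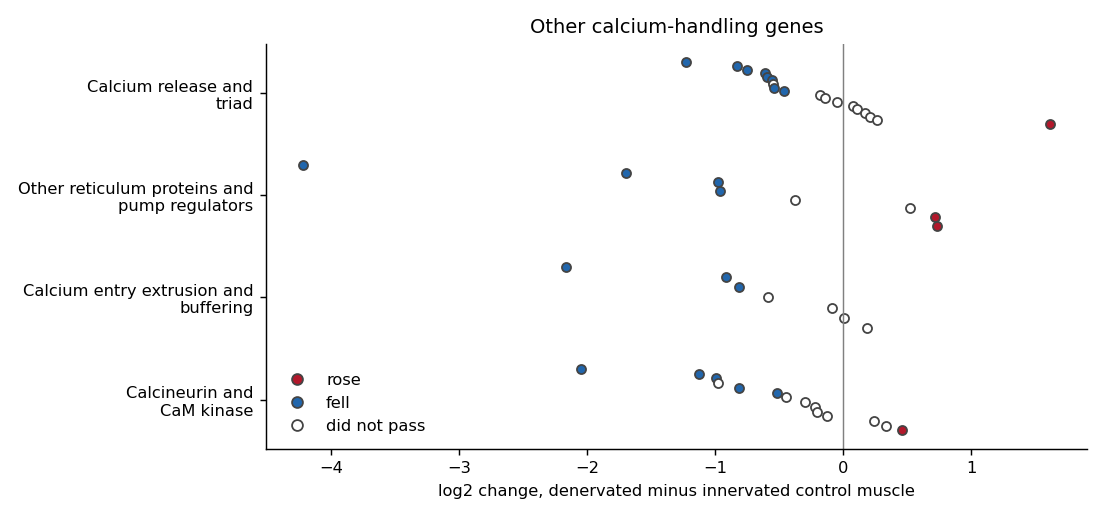
Log2 change with denervation in control muscle of each tested gene of 4 calcium-handling lists; filled points passed the limma test and open points did not. Most filled points lie left of 0, from -4.22 for Dhrs7c, and Cacng1 stands farthest right at 1.62.

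Between the genotypes in denervated muscle, 1 of 7 entry and extrusion genes and 1 of 14 calcineurin and CaM kinase genes passed. Of the 18 release and triad genes and the 8 other reticulum genes 0 passed, where 2.19% of all genes did. The lists were not tested as sets against that share. Slc8a3 was 2.1-fold higher in MCK::cre muscle, at 3573 ± 373 against 1711 ± 345 (SD, n = 3 each, limma adjusted p = 0.00442). Rcan1 was 1.81-fold lower, at 10792 ± 1059 against 19526 ± 2143 (SD, n = 3 each, limma adjusted p = 0.0136). Neither passed in the interaction (1.11, limma adjusted p = 0.111, and -0.71, limma adjusted p = 0.391), and no gene of the 4 lists passed in innervated muscle.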

How the data were processed

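The deposited values are probe set signals, intensity on a linear scale; the deposited table itself shows that the authors had scaled every array to the same 2% trimmed mean of 2500.0, and the software that made them was not given in the sources used here. Signals were used as log2(value + 16) with no further normalization. After leaving out 64 control probe sets, those above the array's median on 2 or more of 11 arrays were tested, 26170 in all. The supplied annotation lists 35890 probe sets, 34945 with 1 gene symbol, 932 with several and 9211 not listed; only those with 1 symbol were named. A gene was represented by its brightest tested probe set.

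All 11 arrays entered 1 fit of group means with limma 3.58.1 in R 4.3.3 (eBayes with trend), with Benjamini-Hochberg adjustment over all tested probe sets and a threshold of 0.05. Fold changes are on the log2(value + 16) scale. Signal ratios of paralogues were compared with exact permutation tests. The scripts were tested on simulated data. Groups and replicate numbers come from the sample titles. Deviations from group means correlated at 0.11, 0.22 and 0.30 between innervated and denervated control arrays of equal number. For arrays of equal number in the other comparisons the correlation was -0.18 to 0.05. Arrays of unequal number were not compared and the labels state no pairing, so whether the numbers pair arrays is not known. Promoters came from RefSeq (GRCm38.p6), and motifs were searched on both strands. Alternatives were other pseudocounts, no filter, 3 other scalings, a fit to the compared groups alone, a replicate block, no variance trend, the mean of a gene's probe sets and leaving out each array.

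All 10 genes were named with every probe set, and of each list up to 5 rises and 5 falls past the threshold in control muscle. The genes and lists were chosen with earlier results of these data known.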

Additional observations from a re-analysis of the deposited data

Results flagged for a closer look

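The change of Pln with denervation differed between the genotypes by limma's interaction test at each of its 3 probe sets. The change in MCK::cre muscle minus that in control muscle was -2.69 at the brightest probe set, 1450952_at, -2.90 at 1423359_at and -2.36 at 1460332_at, in log2 units. All 3 denervated control arrays lay above all 3 denervated MCK::cre arrays at each probe set. The groups held 2 or 3 arrays, too few for a test of single arrays that stand apart.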

How the results depend on the processing

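With spike-in centring the number of the 10 genes past the threshold was 3 instead of 10 in control and 6 instead of 10 in MCK::cre muscle. The other alternatives gave 8 to 10 in control and 7 to 10 in MCK::cre muscle, the lowest with no filter and without single arrays, and in control also with quantile normalization. Spike-in centring gave 5 instead of 1 for genotype in denervated muscle (Atp2a2, Casq2, Jph1 and Jph2 besides Pln). The spike-ins themselves read higher on every denervated MCK::cre array than on any denervated control array. Median centring and a fit to the compared groups alone each gave 2 for genotype in denervated muscle (Sln besides Pln), and leaving out single arrays gave 1 to 2. For the interaction a variance model without trend gave 0, and leaving out single arrays 0 to 1. In control muscle 3 changes turned sign with spike-in centring, Atp2a1 (0.49), Pvalb (0.43) and Trdn (0.14), and the Pln to Sln ratio did with the mean of all probe sets (0.42). Leaving out single arrays gave -2.32 to -2.11 for the Atp2a1 to Atp2a2 ratio and 0.75 to 1.08 for the Casq1 to Casq2 ratio. The cause of these shifts was not tested. Pln kept its rise in control muscle under all 17 alternatives (log2 change 2.90 to 4.41) and its genotype difference in denervated muscle under all 16 (-2.94 to -2.21, limma adjusted p at most 0.0029). With the replicate number as a block, 2 changes in MCK::cre muscle lost the threshold, Atp2a1 (-0.52, limma adjusted p = 0.0591) and Pln (0.70, limma adjusted p = 0.0732). The block changed no other call on the 10 genes, also when fitted to the control arrays alone. Exchanging control arrays only within pairs kept the calls of the Atp2a1 to Atp2a2 and Casq1 to Casq2 ratios and added that of Jph1 to Jph2 (0.16), each at an adjusted exact permutation p of 0.0333. These 2 pairings were added after the data were seen. All 4 list counts in control muscle stayed within 1.5 times. The number of arrays limits the precision, and for probe sets within the trp control range (13.8 to 440) the size of a change is not measured.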
